A study of Mus musculus with 6 samples.

Results

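The genes described here are 10 feedback inhibitors and transcriptional outputs of the ERK pathway, chosen by symbol: the phosphatase genes Dusp4, Dusp5 and Dusp6, the Sprouty family genes Spry1, Spry2, Spry4 and Spred1, the receptor inhibitor gene Errfi1, and the ETS factor genes Etv4 and Etv5. The choice was made with earlier results of these data known. All 10 were found among the 41214 genes of the count tables and all 10 passed the filter on low counts. RNA was sequenced from mammary tumour explant cells derived from NMuMG, an epithelial line of mouse mammary gland that is not itself a tumour line, and both groups express ErbB2, a receptor tyrosine kinase. The 3 shCdGAP libraries carried a short hairpin RNA against CdGAP (genotype CdGAP KD), and the 3 shCTL libraries carried a control hairpin (genotype WT). CdGAP, the product of Arhgap31, turns the small GTPases Rac1 and Cdc42 off. The form of the expressed ErbB2 and its promoter, the hairpin sequences, and whether lines were clones or pools are not given in the sources used here.

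ErbB receptors pass growth signals through RAS, RAF and MEK to the kinase ERK, which enters the nucleus and switches on early response genes. Some of these genes encode brakes that act back on the pathway at the receptor, at RAS or on ERK itself, and others encode transcription factors that carry the signal further. Because their RNA follows ERK output closely in many epithelial cells, levels of genes such as Dusp6, Spry4 and Etv4 are widely used as an indirect readout of the pathway. The counts measure RNA, and phosphorylation of ERK was not analysed here.

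Libraries held 19176540 to 26824249 assigned fragments, so that 3 counts, the level a count of 0 allows, correspond to 0.112 to 0.156 counts in each 1000000 (CPM). Levels below are CPM scaled by the trimmed mean of M values (TMM). Arhgap31, the targeted gene, stood at 1.70, 9.16 and 8.21 CPM in shCdGAP replicates 1 to 3, against 13.2, 14.4 and 15.1 CPM in shCTL replicates 1 to 3. The groups did not overlap, but the gene was not called over all 6 libraries (log2 fold change -1.16 ± 0.55, SE; edgeR adjusted p = 0.19). Without shCdGAP replicate 1 it was called at -0.71 (adjusted p = 0.00407). Replicate 1 of shCdGAP stood apart, with the lowest Arhgap31 and Erbb2 levels of the 6, and its values are given throughout. The share of counts from mitochondrial genes was 2.32% to 3.24% in shCdGAP and 1.58% to 1.69% in shCTL. The epithelial keratin gene Krt8 was abundant in both groups (4473 ± 1406 CPM in shCdGAP and 3611 ± 805 CPM in shCTL), whereas the epithelial genes Cldn3 and Cldn7 had no counts. Of the 7 epithelial markers tested, Cdh1 (768 ± 85.3 CPM in shCdGAP and 232 ± 51.5 in shCTL) and Krt7 (5.57 ± 1.81 CPM in shCdGAP and 1.86 ± 0.320 in shCTL) rose. Krt5 (0.0283 ± 0.0247 CPM in shCdGAP and 1.33 ± 0.278 in shCTL) and Epcam (no counts in shCdGAP and 1.29 ± 0.317 CPM in shCTL) fell. Summed over all 11 epithelial markers, CPM was 7176 to 10980 in shCdGAP and 5906 to 8416 in shCTL, most of it Krt8 and Krt18. Summed CPM of 8 fibroblast markers ran from 3.41 to 7.06 in shCdGAP and from 5.35 to 6.29 in shCTL, with Lum and Thy1 at 0 in every library. That of 7 endothelial markers ran from 0.136 to 0.804 in shCdGAP and from 2.42 to 2.56 in shCTL, with Emcn at 0. For 9 leukocyte markers the sums were 107 to 201 CPM in shCdGAP and 167 to 175 CPM in shCTL, most of it Cd14, with Adgre1 at 0 in every library. Cd68 was at 6.44 ± 4.04 CPM in shCdGAP and 17.6 ± 3.60 in shCTL (not called), and Itgam rose (1.41 ± 0.236 CPM in shCdGAP and 0.213 ± 0.123 in shCTL). The part of these differences in the results below was not tested. In bulk RNA, fewer cells that express a gene and less RNA per cell cannot be told apart. The labels do not say whether replicates were separate cultures, so the p-values are set against the spread among these libraries, and that spread may be technical.

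Of the 10 genes, 6 fell in shCdGAP and none rose: Spry4, Errfi1, Etv4, Dusp5, Dusp6 and Etv5. Over all 13483 tested genes 11.4% fell and 10.4% rose at the same threshold, an edgeR quasi-likelihood adjusted p under 0.05. With no adjustment 1 of the 10, Spry1, rose at p under 0.05, beside 2352 of all 13483 tested genes. DESeq2 called 1 rise (Spry1) and limma 0, and each called 6 falls. Over all genes DESeq2 called 1894 rises and 1949 falls, and limma 1385 and 1599. With the replicate number as a block 5 fell and 1 rose, since Dusp5 was lost and Spry1 passed. Over all genes 1468 fell and 1277 rose with the block. The same 6 genes were lower in every shCdGAP library than in any shCTL library, an arrangement found in 22.4% of all tested genes. The median log2 fold change of the 10 was -1.30, beside 0.01 for all tested genes. Since the 10 were chosen with earlier results of these data known, these counts do not test whether the set differs from other genes. The members that did not pass were Dusp4, Spry1, Spry2 and Spred1, and the groups overlapped for each of them. The count of fallen members was 3 without shCTL replicate 1, 2 or 3 (over all genes 1054 of 13786, 856 of 13629 and 892 of 13623 fell). It was also 3 without shCdGAP replicate 2 (961 of 13847 over all genes). It was 4 without shCdGAP replicate 3 (1259 of 13696) and 7 without shCdGAP replicate 1 (3032 of 13831). Without both libraries numbered 1, 7 members fell and 1 rose (Spry1), beside 3640 fallen and 3475 risen of 13625 tested genes.

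**Figure D1:**
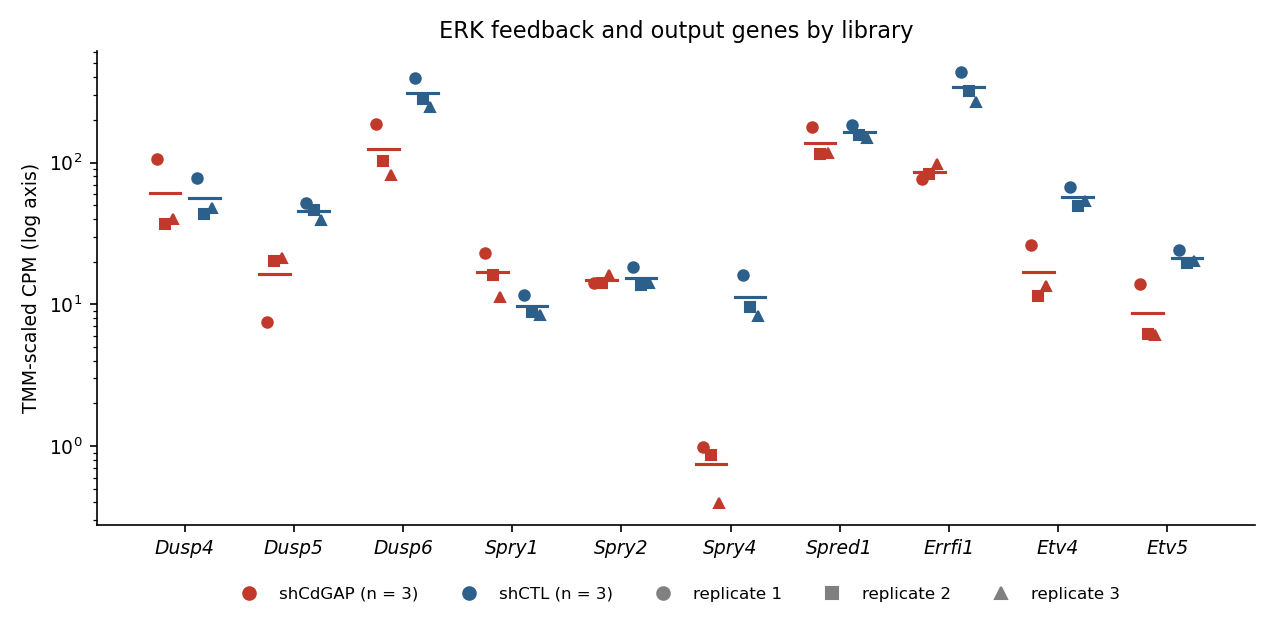
TMM-scaled CPM (log axis) of each gene in the 3 shCdGAP (red, left) and 3 shCTL (blue, right) libraries, with symbols for replicates and horizontal bars for group means. Spry4 lies between 0.396 and 0.983 CPM in shCdGAP and between 8.31 and 16.1 CPM in shCTL, while the Spry2 groups overlap around 15 CPM.

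Promoter sequence is shown for Dusp5, Dusp6 and Errfi1, 3 of the fallen genes whose windows hold motifs of factors known to act downstream of ERK or in early response genes. RefSeq (GRCm38.p6) gave 9 start sites for 7 of the 10 genes, and the 250 bases before each start were searched on both strands for 6 motifs. Dusp4, Spry4 and Etv4 were not matched. Capitals mark every match to CGGAAG or AGGAAG (ETS sites), TGANTCA (AP-1), TGACGTC (cAMP response element), GCGNGGG (EGR) or the CArG box bound by serum response factor. The Dusp5 window (chr19:53528895-53529108, plus strand) stops 37 bases before the RefSeq start, ahead of the first annotated exon. It holds CTTCCT, the reverse complement of AGGAAG, and a pair of adjoining CArG boxes at positions -82 to -73 and -72 to -63 from that start. The Dusp6 window (chr10:99262981-99263230, plus strand) holds CTTCCT and CTTCCG, matches on the reverse strand to the 2 ETS motifs. The Errfi1 window (chr4:150854820-150855069, plus strand) lies before the downstream of its 2 listed starts and inside the annotated span of the gene. This printed window holds 1 EGR match and TGACGTC on both strands in overlapping matches at -51 to -44. The window before the upstream Errfi1 start, which is not printed, held 0 matches.
Dusp5: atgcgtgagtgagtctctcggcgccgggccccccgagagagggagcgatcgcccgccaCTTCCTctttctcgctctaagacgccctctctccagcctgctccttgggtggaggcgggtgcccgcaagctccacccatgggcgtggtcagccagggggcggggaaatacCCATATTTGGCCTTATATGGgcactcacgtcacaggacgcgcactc
Dusp6: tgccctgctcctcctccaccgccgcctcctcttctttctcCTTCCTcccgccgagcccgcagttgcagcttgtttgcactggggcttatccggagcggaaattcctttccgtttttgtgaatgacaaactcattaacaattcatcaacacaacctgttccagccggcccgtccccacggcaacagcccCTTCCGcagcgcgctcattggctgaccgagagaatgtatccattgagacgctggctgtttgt
Errfi1: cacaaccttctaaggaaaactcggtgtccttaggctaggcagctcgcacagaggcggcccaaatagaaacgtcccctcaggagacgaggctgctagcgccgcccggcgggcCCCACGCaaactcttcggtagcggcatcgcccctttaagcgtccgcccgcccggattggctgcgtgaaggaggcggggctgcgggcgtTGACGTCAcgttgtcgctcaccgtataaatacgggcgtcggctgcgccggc
A CArG box was found before 1.47% of 32851 RefSeq starts and TGACGTC before 2.78%, so these matches are uncommon in windows of this length. CGGAAG (13.6%), GCGNGGG (20.3%) and AGGAAG (29.5%) are common, and TGANTCA (6.75% of all starts) was found at 0 of the 9 starts. CGGAAG was found for Dusp6 and for Spred1, which was not called, and EGR matches for Spred1, Spry2, Errfi1 and Etv5, so both motifs stood on both sides of the threshold. Spry1 had no match. A match is a string of letters and not evidence of a bound factor.

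Among the dual-specificity phosphatases, which remove phosphate from ERK, Dusp5 and Dusp6 fell and Dusp4 did not pass. Dusp6 (ENSMUSG00000019960, GRCm38 chromosome 10, 99263231 to 99267488) encodes a cytoplasmic phosphatase selective for ERK. Its level was 188, 103 and 81.2 CPM in shCdGAP replicates 1 to 3, against 397, 281 and 247 CPM in shCTL replicates 1 to 3. The highest shCdGAP library, replicate 1, was still below the lowest shCTL library. Means were 124 ± 56.7 CPM in shCdGAP and 308 ± 78.6 CPM in shCTL (SD, n = 3 each), a 2.48-fold lower level in shCdGAP, with a log2 fold change of -1.31 ± 0.35 (SE, edgeR adjusted p = 0.0402). The Dusp6 call held without shCdGAP replicate 1 (-1.73, adjusted p = 0.000469) and was lost without shCTL replicate 1 (0.109), 2 (0.1) or 3 (0.0774) or shCdGAP replicate 2 (0.128) or 3 (0.0803). Dusp5 (ENSMUSG00000034765, chromosome 19, 53529109 to 53542431) encodes a nuclear phosphatase for ERK. It stood at 7.46, 20.3 and 21.3 CPM in shCdGAP and at 51.5, 46.2 and 39.5 CPM in shCTL. Here replicate 1 was the lowest shCdGAP library, the reverse of its place for Dusp6. The Dusp5 mean was 2.80-fold lower in shCdGAP, with a log2 fold change of -1.48 ± 0.39 (edgeR adjusted p = 0.0381), and it missed the threshold with the replicate number as a block (-1.59, adjusted p = 0.0629). It was called without shCdGAP replicate 1 (-1.13, adjusted p = 0.000408) or 3 (0.0497) and lost without shCTL replicate 1 (0.129), 2 (0.114) or 3 (0.0902) or shCdGAP replicate 2 (0.0784). Dusp4 (ENSMUSG00000031530, chromosome 8, 34807297 to 34819894), a nuclear phosphatase that also acts on the stress kinase JNK, was at 105, 36.8 and 40.0 CPM in shCdGAP and 77.4, 43.1 and 47.8 CPM in shCTL. Replicate 1 was the highest library of each group, and the groups overlapped. Its log2 fold change was 0.11, with a 95% interval of -0.98 to 1.21 (adjusted p = 0.89), so a change of up to about that size in either direction was not resolved. Without shCdGAP replicate 1 the Dusp4 value was -0.53 and also not called (adjusted p = 0.106).

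The Sprouty family gave the largest difference of the 10 genes, in Spry4, and one of the 2 closest to 0, in Spry2. Spry4 (ENSMUSG00000024427, chromosome 18, 38586268 to 38601268), an inhibitor of receptor signalling to RAS and RAF, had 22, 19 and 10 counts in shCdGAP replicates 1 to 3 and 312, 263 and 221 counts in shCTL replicates 1 to 3. In CPM these were 0.983, 0.862 and 0.396 in shCdGAP and 16.1, 9.57 and 8.31 in shCTL, so every shCdGAP library was below 1 CPM. The mean of 0.747 ± 0.310 CPM in shCdGAP was 15.2-fold lower than the 11.3 ± 4.18 CPM in shCTL, with a log2 fold change of -3.92 ± 0.43 (edgeR adjusted p = 0.00178). Spry2 (ENSMUSG00000022114, chromosome 14, 105891949 to 105896819), a relative that binds the adaptors Grb2 and Cbl, was at 14.1, 14.2 and 16.1 CPM in shCdGAP and 18.3, 13.6 and 14.1 CPM in shCTL. These values interleave, and the log2 fold change was -0.05 with a 95% interval of -0.45 to 0.35 (adjusted p = 0.88). Spry1 (ENSMUSG00000037211, chromosome 3, 37639947 to 37644598), a further inhibitor of receptor tyrosine kinases, was at 23.1, 16.2 and 11.2 CPM in shCdGAP and 11.7, 8.88 and 8.46 CPM in shCTL. Only shCdGAP replicate 3 reached into the shCTL range, lying just under shCTL replicate 1. The Spry1 log2 fold change of 0.80 ± 0.29 was not called (edgeR adjusted p = 0.102). It passed with the replicate number as a block (0.76, adjusted p = 0.0498), in DESeq2 (0.79, adjusted p = 0.0443) and without shCdGAP replicate 3 (1.03, adjusted p = 0.0394). Spred1 (ENSMUSG00000027351, chromosome 2, 117121374 to 117182279), which brings the RAS inactivator neurofibromin to the membrane, was at 180, 115 and 117 CPM in shCdGAP and 185, 155 and 149 CPM in shCTL. Replicates 2 and 3 of shCdGAP lay below all shCTL libraries, and replicate 1 lay near the top of the shCTL range. Its log2 fold change was -0.25 over all libraries (95% interval -0.73 to 0.24, adjusted p = 0.44) and -0.48 without shCdGAP replicate 1, where it passed (adjusted p = 0.00898).

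Errfi1 (ENSMUSG00000028967, chromosome 4, 150853919 to 150868892) encodes MIG6, which binds the kinase domain of ErbB receptors and holds it inactive. The gene was at 76.0, 82.8 and 97.4 CPM in shCdGAP and at 433, 320 and 268 CPM in shCTL. The groups were far apart, and the spread within shCdGAP (SD 10.9) was smaller than within shCTL (SD 84.5). The mean was 3.99-fold lower in shCdGAP (85.4 CPM in shCdGAP and 341 CPM in shCTL), with a log2 fold change of -2.00 ± 0.21 (edgeR adjusted p = 0.00144).

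The ETS factors Etv4 and Etv5, transcription factors of the PEA3 group with roles in branching of the mammary gland, both fell. Etv4 (ENSMUSG00000017724, chromosome 11, 101769742 to 101785371) was at 26.3, 11.4 and 13.4 CPM in shCdGAP and 67.8, 49.7 and 53.6 CPM in shCTL. Etv5 (ENSMUSG00000013089, chromosome 16, 22381309 to 22439719) was at 13.9, 6.21 and 6.11 CPM in shCdGAP and 24.1, 19.5 and 20.4 CPM in shCTL. For both genes replicate 1 of shCdGAP was above the other shCdGAP libraries (2.12-fold and 2.26-fold their mean) and still below every shCTL library. The log2 fold change was -1.74 ± 0.34 for Etv4 (edgeR adjusted p = 0.0140) and -1.29 ± 0.35 for Etv5 (adjusted p = 0.0436). Etv4 averaged 17.0 ± 8.07 CPM in shCdGAP and 57.0 ± 9.52 CPM in shCTL, and Etv5 averaged 8.74 ± 4.47 CPM in shCdGAP and 21.3 ± 2.46 CPM in shCTL. The Etv5 call held without shCdGAP replicate 1 (-1.78, adjusted p = 7.28e-05) and was lost without shCTL replicate 1 (0.112), 2 (0.111) or 3 (0.118) or shCdGAP replicate 2 (0.126) or 3 (0.0974).

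**Figure D2:**
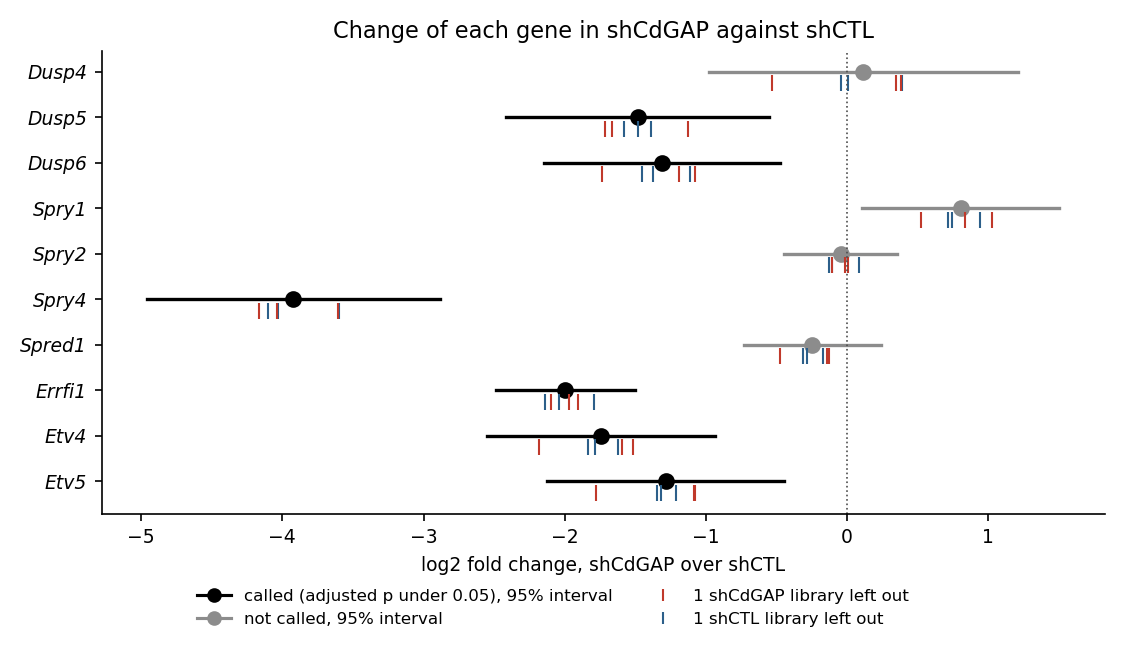
Log2 fold change of each gene, shCdGAP over shCTL, with its 95% interval (black, called; grey, not called) and, as ticks under it, the value with 1 shCdGAP (red) or 1 shCTL (blue) library left out. Spry4 stays between -4.17 and -3.60 and Errfi1 between -2.14 and -1.79, while Dusp4 has ticks on both sides of 0.

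Spry4, Errfi1 and Etv4 were called with any single library left out (edgeR adjusted p up to 0.0124, 0.0115 and 0.0483). The replicates numbered 1 were the high libraries for most of these genes. In shCTL, replicate 1 was the highest of its group for 10 of 10 genes, and it was so for 42.9% of all tested genes. In shCdGAP, replicate 1 was highest for 7 of 10, beside 49.6% of all tested genes. The other 3 genes, Dusp5, Errfi1 and Spry2, were highest in shCdGAP replicate 3 and lowest in replicate 1. Genes move together within a library, so these counts are a description.

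**Figure D3:**
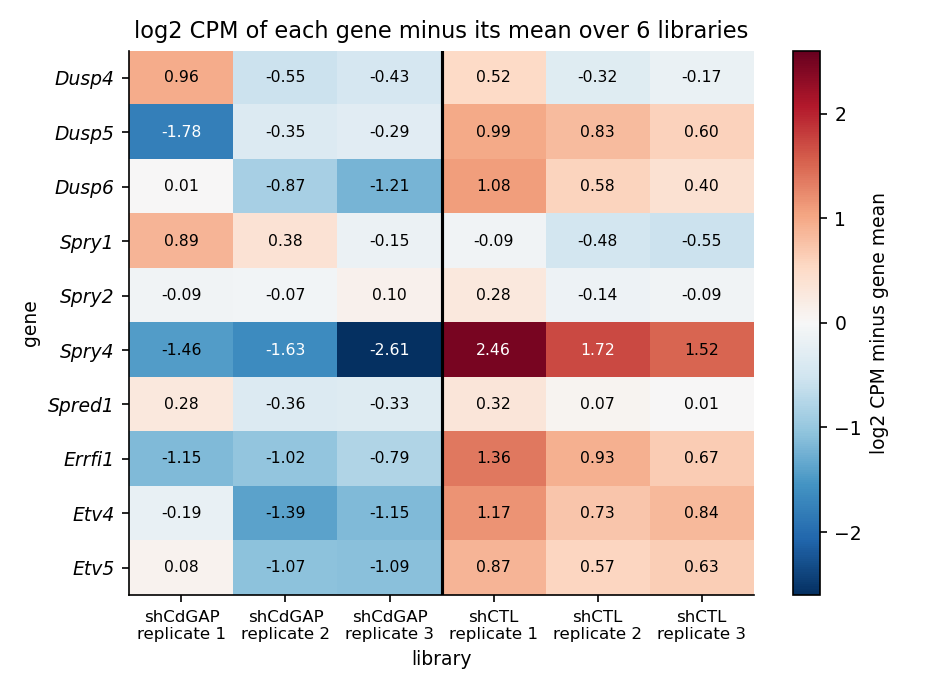
Log2 CPM of each gene (prior count 2) minus its mean over the 6 libraries, with shCdGAP to the left of the line and shCTL to the right. Dusp6, Etv4 and Etv5 share a pattern in which shCdGAP replicate 1 (0.01, -0.19 and 0.08) lies between the other shCdGAP libraries and shCTL.

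By these centred profiles Dusp6 and Etv5 were each other's nearest members, with a root mean square difference of 0.162 log2 units over 6 libraries, and Etv5 was also nearest to Etv4 (0.239). Errfi1 and Dusp5 were nearest to each other at 0.459, and Spry4 was farthest from any other member (1.03, to Errfi1). Among 10324 other genes with a mean of at least 5 CPM, the 3 nearest to Dusp6 were Plce1 (0.106), Fgfrl1 (0.133) and Arap1 (0.135). Nearest to Etv4 were Pros1 (0.108) and B630019K06Rik (0.115).

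Ranked by TPM, a share of transcripts that takes gene length into account, Dusp6 and Errfi1 had the highest mean levels in both groups and Spry4 the lowest. In shCdGAP, Dusp6 was at 118 ± 50.9 TPM and Errfi1 at 63.6 ± 8.44, followed by Dusp4 (58.4 ± 35.7) and Spred1 (53.7 ± 12.9). The ranges of Errfi1, Dusp4 and Spred1 overlapped, and Dusp4 also reached into the Dusp6 range, so their order is not resolved. Below them Spry2 (18.9 ± 1.43), Dusp5 (17.7 ± 8.58), Spry1 (15.4 ± 5.20) and Etv4 (14.5 ± 6.47) did not differ beyond their spread. Etv5 was at 5.63 ± 2.73 TPM and Spry4 at 0.434 ± 0.179, the lowest, and the Etv5 and Dusp5 ranges just overlapped. In shCTL, Dusp6 (317 ± 76.9 TPM) and Errfi1 (274 ± 64.6) overlapped each other and lay above all others. Spred1 (69.3 ± 7.21), Dusp4 (58.9 ± 18.7), Dusp5 (53.3 ± 6.58) and Etv4 (52.9 ± 8.10) came next, with Dusp4 overlapping the other 3. Spry2 (21.2 ± 3.24), Etv5 (14.96 ± 1.52) and Spry1 (9.58 ± 1.596) did not overlap one another, and Spry4 (7.10 ± 2.52) overlapped Spry1.

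Because scaling cancels in a ratio of genes from the same library, members of the same family were set against each other over all 10 pairs. The Spry2 to Spry4 ratio was 4.41 ± 0.81 log2 units in shCdGAP and 0.48 ± 0.29 in shCTL (SD, n = 3 each), a difference of 3.93. For Dusp4 to Dusp6 the log2 ratio was -1.11 ± 0.33 in shCdGAP and -2.48 ± 0.20 in shCTL, a difference of 1.36. The Etv4 to Etv5 log2 ratio was 0.98 ± 0.14 in shCdGAP and 1.41 ± 0.07 in shCTL, a difference of -0.44. Ratios did not overlap between groups for 8 of the 10 pairs. Each of these 8 had an exact two-sided permutation p of 0.1, the smallest that 3 against 3 libraries allow (adjusted over the pairs, 0.125). Levels of 44.1% of single tested genes did not overlap in either direction, but no such share was taken for ratios of other gene pairs. Pairs share genes, and most of the 8 set a fallen gene against one not called, so they largely restate the changes of single genes. The exceptions were Dusp5 to Dusp6 and Spry2 to Spred1. The Dusp5 to Dusp6 difference was -0.25 over all libraries and 0.59 without shCdGAP replicate 1, the library in which Dusp5 was lowest.

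Erbb2, which encodes the receptor, was itself lower in shCdGAP (136, 231 and 238 CPM) than in shCTL (776, 638 and 663 CPM), with a log2 fold change of -1.78 ± 0.23 (edgeR adjusted p = 0.00341). Reads from an introduced Erbb2, if mouse in sequence, and from the endogenous gene cannot be told apart in these counts. Each gene was also expressed relative to Erbb2 in the same library, a choice made after the values were seen. Since Erbb2 itself was lower, 87.7% of all other tested genes were higher relative to Erbb2 in every shCdGAP library than in any shCTL library, 9.20% overlapped and 3.09% were lower. The ratios are therefore a description of how far each gene moved beside Erbb2. The groups overlapped for 5 of the 6 fallen genes, and for 29.4% of all fallen genes. Errfi1 was at 0.558, 0.359 and 0.409 of the Erbb2 level in shCdGAP replicates 1 to 3 and at 0.558, 0.503 and 0.404 in shCTL replicates 1 to 3. For Dusp6 these ratios were 1.38, 0.445 and 0.341 in shCdGAP and 0.511, 0.440 and 0.372 in shCTL. Etv5 was at 0.102, 0.0269 and 0.0256 in shCdGAP and at 0.0310, 0.0305 and 0.0307 in shCTL. Etv4 was at 0.193, 0.0493 and 0.0564 in shCdGAP and at 0.0873, 0.0779 and 0.0809 in shCTL. For Etv4 and Etv5 the groups overlapped only through shCdGAP replicate 1, and replicates 2 and 3 lay below every shCTL library. Dusp5 was at 0.0548, 0.0878 and 0.0892 in shCdGAP and at 0.0663, 0.0725 and 0.0595 in shCTL, with replicates 2 and 3 of shCdGAP above every shCTL library. Spry4 remained lower in every shCdGAP library (0.00721, 0.00373 and 0.00166) than in any shCTL library (0.0207, 0.0150 and 0.0125). Of all fallen genes 27.1% were lower relative to Erbb2 in this way, and 43.5% were higher. Dusp4, Spry1, Spry2 and Spred1, which were not called, lay with the 93.4% of genes not called as fallen that were higher relative to Erbb2, and nothing is read from their ratios. Replicate 1 of shCdGAP has the lowest Erbb2 level and so the highest ratio of its group for 85.2% of all tested genes. Dusp5 was the 1 gene of the 10 with its highest shCdGAP ratio elsewhere, in replicate 3.

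**Figure D4:**
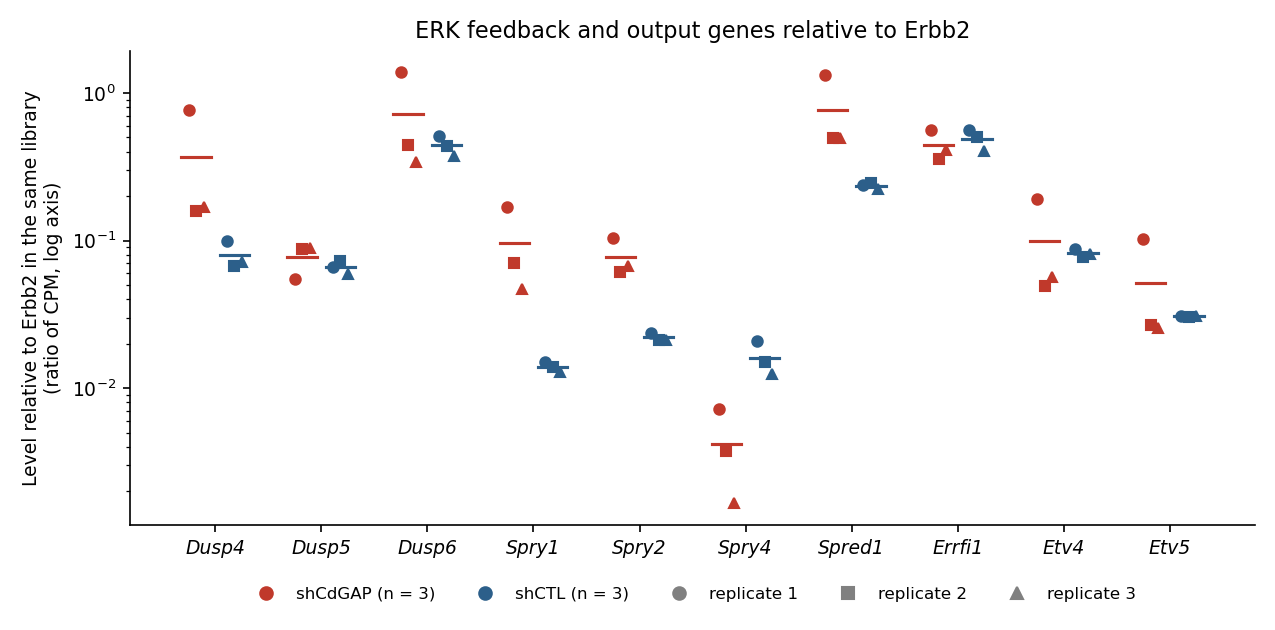
Level of each gene divided by the Erbb2 level of the same library (ratio of CPM, log axis) in shCdGAP (red, left) and shCTL (blue, right), with arithmetic means as bars. Errfi1 lies between 0.359 and 0.558 in shCdGAP and between 0.404 and 0.558 in shCTL, while Spry4 stays lower in all shCdGAP libraries.

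Other genes of the pathway were taken from 3 lists written with earlier results of these data known. Of 19 tested feedback regulators outside the 10 genes, 6 fell and 3 rose (median log2 fold change -0.27). Over all tested genes 11.4% fell and 10.4% rose. Dusp2 (1.18 ± 0.142 CPM in shCdGAP and 4.89 ± 0.949 in shCTL, edgeR adjusted p = 0.00226) and Dusp7 (16.3 ± 1.44 CPM in shCdGAP and 36.7 ± 6.27 in shCTL, adjusted p = 0.00446), which encode further MAP kinase phosphatases, fell. Dusp9, another phosphatase gene of ERK, rose (15.3 ± 1.65 CPM in shCdGAP and 3.97 ± 0.348 in shCTL, adjusted p = 0.000797), as did Pea15a, whose product holds ERK in the cytoplasm (822 ± 29.2 CPM in shCdGAP and 393 ± 40.0 in shCTL, adjusted p = 0.00155). The remaining SPRED genes, named after their values were seen, both fell: Spred2 to 39.0 ± 9.76 CPM in shCdGAP against 81.7 ± 11.8 in shCTL, and Spred3 to 21.6 ± 5.16 CPM in shCdGAP against 51.9 ± 8.02 in shCTL (edgeR adjusted p = 0.0138 and 0.00839).

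Among 25 other ERK output genes, 12 fell and none rose (median -0.84), beside 11.4% and 10.4% of all tested genes. The early response transcription factor genes Egr3 (0.101 ± 0.0693 CPM in shCdGAP and 1.91 ± 0.189 in shCTL, edgeR adjusted p = 0.00127) and Egr1 (6.997 ± 2.62 CPM in shCdGAP and 49.9 ± 20.8 in shCTL, adjusted p = 0.00489) had the smallest p-values. Etv1, the remaining PEA3 gene and named after its values were seen, fell to 0.118 ± 0.0949 CPM in shCdGAP against 1.63 ± 1.13 in shCTL (adjusted p = 0.0154). In shCTL replicates 1 to 3 it was at 2.94, 0.946 and 1.02 CPM. In shCdGAP replicates 2 and 3 Etv1 (0.0907 and 0.0396 CPM) and Egr3 (0.0453 and 0.0793 CPM) were under the level of 3 counts, so the sizes of these 2 falls are poorly resolved. With no adjustment 1 gene of this list rose at p under 0.05 (2352 of all 13483 tested genes). DESeq2 and limma called 0 rises in the list (1894 and 1385 over all genes). With the replicate block, and without both libraries numbered 1, 1 gene of the list rose (1277 of 13483 and 3475 of 13625 over all genes). The count of fallen genes was 7 without shCTL replicate 1 (1054 of 13786 over all genes) and 6 without shCdGAP replicate 2 (961 of 13847).

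For the cascade between receptor and ERK, of 28 tested genes 6 fell and none rose (median 0.03), beside 11.4% and 10.4% of all tested genes. Erbb2 and Ksr2, a scaffold of RAF and MEK (1.36 ± 0.934 CPM in shCdGAP and 16.3 ± 3.36 in shCTL, edgeR adjusted p = 0.00384), had the smallest p-values. Map2k2, which encodes a form of MEK and was named after its values were seen, also fell (130 ± 2.88 CPM in shCdGAP and 171 ± 7.80 in shCTL, adjusted p = 0.0263). Without adjustment 5 cascade genes rose at p under 0.05 (2352 of all 13483 tested genes). DESeq2 called 3 rises (1894 over all genes), limma 0 (1385) and the replicate block 2 (1277). The count of fallen cascade genes was 3 without shCTL replicate 3 (892 of 13623 over all genes) and 10 without shCdGAP replicate 1 (3032 of 13831). That of risen cascade genes was 2 without shCTL replicate 1 (791 of 13786 over all genes) and 4 without shCdGAP replicate 1 (2753 of 13831). Spred2 is in both of the first lists, and no list was tested against other genes.

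**Figure D5:**
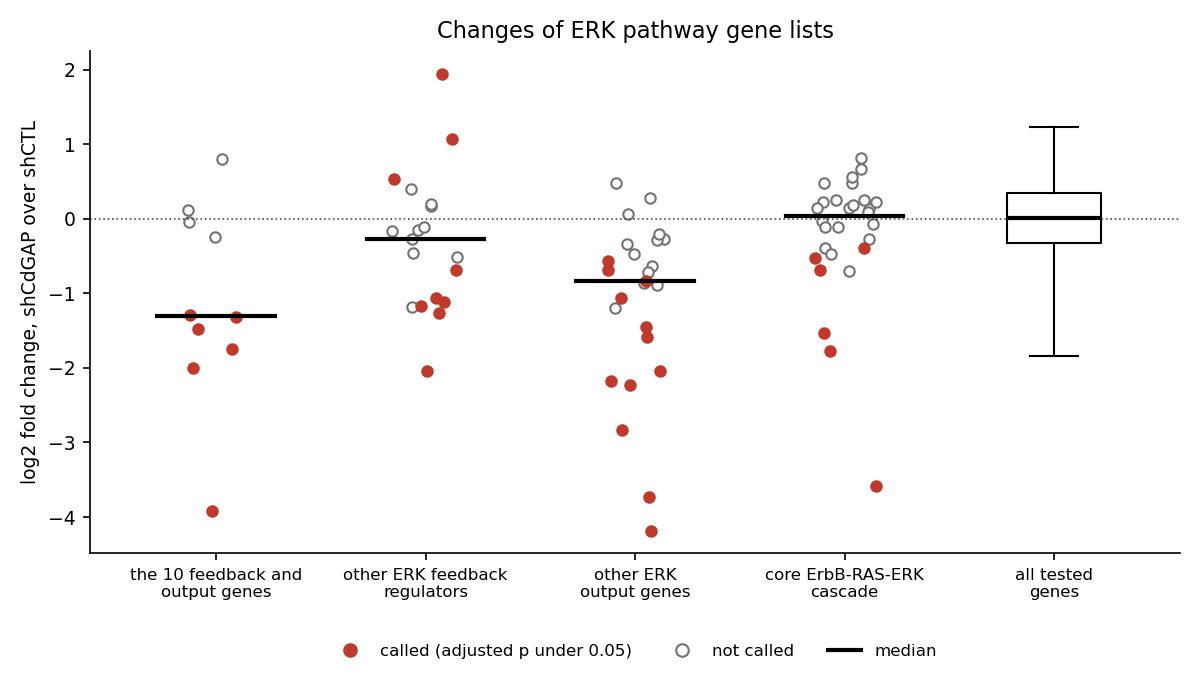
Log2 fold change, shCdGAP over shCTL, of each tested gene in the 10 feedback and output genes and in 3 further ERK pathway lists (filled, called; open, not called; bar, median), beside a box of all tested genes with whiskers at the 5th and 95th percentiles. Medians are -1.30, -0.27, -0.84 and 0.03 in the lists and 0.01 over all tested genes.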

How the data were processed

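RNA of 6 libraries was sequenced (3 shCdGAP, 3 shCTL). The submitters' processing notes name, with no roles or order, TopHat2 2.0.14, Trimmomatic 0.30, CASAVA 1.8, DESeq, Cuffdiff 2.2.1 and the build GRCm38. The deposited values are unnormalized counts of fragments in each gene, made per the file headers by featureCounts 1.4.6 with Ensembl release 77, both ends mapped, no chimeric pairs and strand setting 2, so antisense genes were counted apart. The gene length column (other) is also as deposited. Symbols from GENCODE M21 matched 40254 of 41214 genes.

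Counts were fitted with edgeR 4.0.16 (R 4.3.3): filterByExpr (minimum count 10, minimum total 15), TMM scaling, the quasi-likelihood F test over all 13483 tested genes and Benjamini-Hochberg adjustment, called at an adjusted p under 0.05. The SE of a log2 fold change is its size over the root of the F statistic. Alternatives used DESeq2 1.42.0, limma 3.58.1 (prior count 2), other scalings and filters, a replicate block and left-out libraries. The steps were tested on simulated counts. There the share of false calls was above the threshold with edgeR, limma and DESeq2, and highest with DESeq2. TPM was computed from counts and gene lengths.

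The members and lists were chosen with earlier results of these data known. By rule the text names all 10 members, Arhgap31, Erbb2, up to 4 genes per list by smallest adjusted p, and nearest profiles. Marker genes, other SPRED genes, Etv1, Junb, Fos, Myc and Map2k2 were added after their values were seen. Some genes that the rule names are not reported here. The closest libraries (shCTL replicates 2 and 3) differed by more than sampling noise (chi-square per degree of freedom 3.19), so each was fitted as a replicate. This does not show that they were separate cultures. For shCTL replicate 1 against 2 and 3 the values were 28.5 and 29.4. In shCdGAP they were 14.5 for replicates 2 and 3, and 163 and 212 for replicate 1 against these. Fits without a replicate 1 therefore rest on the closest libraries of that group, which narrows their spread. Deviations from group means of same-numbered libraries correlated at 0.36, 0.29 and 0.25 over 13483 genes, all above 0.1. The replicate number was therefore fitted as a block only as an alternative. The main fit was unpaired, and its p-values ignore any pairing. Differently numbered libraries also correlated, shCdGAP 2 with shCTL 3 at 0.25 and shCdGAP 3 with shCTL 2 at 0.19, so only number 1 stood apart from the others. Any pairing by number comes from the data, since the labels name no shared batch. Limits set by 3 counts cover counting error only.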

Additional observations from a re-analysis of the deposited data

How the results depend on the processing

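All 6 falls kept their direction and call with other size factors (RLE), library totals, DESeq2, limma and no filter on low counts. With only genes at a mean of 10 CPM or above, Spry4 was not tested, the other 5 stayed called, and of 9325 tested genes 870 rose and 825 fell. Calls rested on few libraries. With 1 library left out, 538 to 2753 genes rose and 856 to 3032 fell, of 13623 to 13847 genes tested. In those fits 0 to 1 members rose and 3 to 7 fell, 6 to 16 output genes fell, and 0 to 4 cascade genes rose and 3 to 10 fell. Member log2 fold changes then ran from -0.53 to 0.39 (Dusp4), -1.72 to -1.13 (Dusp5), -1.73 to -1.08 (Dusp6), 0.52 to 1.03 (Spry1), -0.13 to 0.086 (Spry2), -0.48 to -0.13 (Spred1) and -1.78 to -1.08 (Etv5). Signs changed for values that were never called: Dusp4 was -0.046 without shCTL replicate 2, -0.53 without shCdGAP replicate 1 and -0.014 in limma, and Spry2 was 0.086 without shCTL replicate 1 and 0.0027 without shCdGAP replicate 1. Without both libraries numbered 1, 3475 of 13625 tested genes rose and 3640 fell. In that fit 1 member, 5 feedback regulators, 1 output gene and 10 cascade genes rose and 11 cascade genes fell, and Dusp4 was -0.23, Spry1 0.67, Spry2 0.14 and Spred1 -0.38, with Spry1 and Spred1 called. With the replicate block 1 member (Spry1, 0.76), 1 output gene and 2 cascade genes rose, the Dusp5 call was lost (-1.59), Dusp4 was -0.013, and no other member's call changed. DESeq2 called Spry1 (0.79, 1 member risen) and 3 risen cascade genes. The cause of these shifts was not tested. Leaving libraries out of the family ratios, chosen after the data were seen, changed the sign only for Dusp5 to Dusp6 (0.59 without shCdGAP replicate 1 and 0.49 without both numbered 1). Depth limits Spry4, whose shCdGAP libraries held 10 to 22 counts, and also Egr3 and Etv1, whose shCdGAP levels were lower still.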
